A study of Sparus aurata with 9 samples.

Results

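Scleraxis and tenomodulin, genes that mark tendon cells, were followed in white skeletal muscle of gilthead seabream (Sparus aurata) that had swum against a water flow. Gene models were chosen by their deposited descriptions. Of 61849 gene models, 4 carry one of these names, and all 4 had counts. Those whose description begins with tenomodulin are 2 (Sa_32975.1.1 and Sa_7299.1.1), and no description begins with scleraxis. The other 2 hold the name later in the description, as "basic helix-loop-helix transcription factor scleraxis-like" (Sa_52057.3.1, here scleraxis-like) and the same without the suffix (Sa_24500.4.1, here scleraxis), and were added by that wider match. All 4 were selected with their levels in these fish known, so their levels and fold changes are descriptions without tests.

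In vertebrates, scleraxis is a transcription factor of tendon progenitors and tendon cells that activates genes of the tendon matrix, among them collagen I. Tenomodulin is a membrane protein of mature tendon cells and a late marker of their differentiation, and depends on scleraxis in mouse tendon. In fish, the white muscle blocks are joined by sheets of connective tissue, the myosepta, which pass the force of the fibres to the skeleton and hold tendon-like cells that express both genes in zebrafish.

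White muscle was sequenced from 9 juvenile fish after 8 months, 3 kept at minimal flow (the controls), 3 induced to swim at 1 body length per second (1 BL s-1) and 3 at 2 BL s-1. All came from 1 commercial farm, and fish of similar size with normal morphology had been picked. Each group lived in 1 tank, so a difference between groups cannot be told apart from a difference between tanks. No strain or age is stated in the labels.

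The fish had between 3660245 and 5267310 counts each. The defining markers of white muscle were present throughout. Fast muscle gene models, 57 of 100 with a count, summed to 685331–890421 normalized counts in the controls, 694581–901948 at 1 BL s-1 and 532439–716664 at 2 BL s-1. Slow muscle gene models stayed at 56.8 or less in 8 fish and reached 546 in fish 2 at 2 BL s-1. Fish 3 at 1 BL s-1 stood apart on the first principal component, with 30.8% of the variance, at 53.6 against values below 0 for the other 8 fish. Control fish 2 stood highest on the second component at 35.8.

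Scleraxis-like was by far the more deeply counted of the scleraxis models, and its level was lower at both speeds than at minimal flow. Its normalized counts, the counts divided by each fish's size factor, were 609, 971 and 517 in the 3 controls. They were 405, 287 and 528 in the fish at 1 BL s-1, and 407, 328 and 313 in those at 2 BL s-1. Thus every fish at 2 BL s-1 lay below every control, while at 1 BL s-1 fish 3 lay just above control fish 3. That overlap depends on the scaling. Fish 3 at 1 BL s-1 had the lowest size factor of the 9 fish, 0.774, and the fewest gene models with a count, 7780. As shares of each fish's total count, all 3 fish at 1 BL s-1 lay below all 3 controls, as did those at 2 BL s-1. How many of all gene models hold these orders on that measure was not computed, and nothing is read from them. Within groups, the spread was widest in the controls, where fish 2 was far above the others, and narrowest at 2 BL s-1.

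The group means of scleraxis-like were 699 ± 240 in the controls, 407 ± 121 at 1 BL s-1 and 349 ± 50.4 at 2 BL s-1 (SD, n = 3 each). The fitted log2 fold change was −0.79 (SE 0.31) for 1 BL s-1 vs. controls. It was −0.997 (SE 0.26) for 2 BL s-1 vs. controls. Both comparisons use the same 3 controls. The fold change was −0.20 (SE 0.26) for 2 vs. 1 BL s-1, less than its standard error. Leaving out control fish 2 gave −0.49 at 1 BL s-1 and −0.69 at 2 BL s-1, the smallest changes of any fish left out. The direction against the controls was the same whichever fish was left out, with values from −1.02 to −0.49 at 1 BL s-1 and from −1.17 to −0.69 at 2 BL s-1. In whole muscle, fewer cells that express a gene and less of its RNA per cell cannot be told apart.

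**Figure D1:**
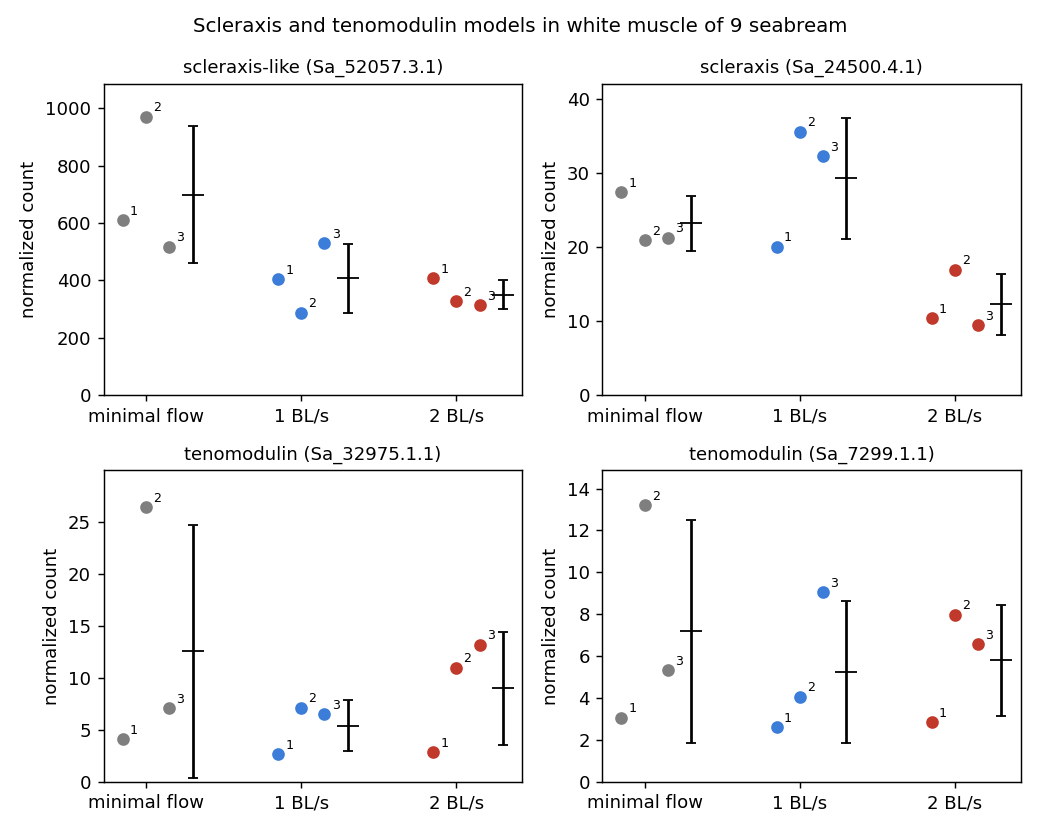
Normalized counts (y axes, linear from 0) of the scleraxis and tenomodulin models in each fish (points, numbered within their group) at minimal flow, 1 and 2 BL s-1 (x axes), with the mean (dash) ± SD of 3 fish. On this scale, all 3 fish at 2 BL s-1 lie below all 3 controls for both scleraxis models. The tenomodulin groups overlap, and control fish 2 is the highest fish for both tenomodulin models.

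Scleraxis (Sa_24500.4.1) was counted far less often, with 191 counts in all 9 fish against 4315 for scleraxis-like. The 3 controls had 27.4, 20.9 and 21.3 normalized counts. The fish at 1 BL s-1 had 20.02, 35.6 and 32.3. The fish at 2 BL s-1 had 10.4, 16.9 and 9.397. The fish at 2 BL s-1 all lay below the fish of both other groups, while those at 1 BL s-1 were spread around the controls, with 1 below and 2 above all of them.

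The means of scleraxis were 23.2 ± 3.67 in the controls, 29.3 ± 8.20 at 1 BL s-1 and 12.2 ± 4.10 at 2 BL s-1 (SD, n = 3 each). In order of level, the fish swimming at 1 BL s-1 lead, and they and the controls do not differ beyond their spread. The log2 fold change was 0.32 (SE 0.35) for 1 BL s-1 vs. controls. It was −0.91 (SE 0.37) for 2 BL s-1 vs. controls and −1.23 (SE 0.40) for 2 vs. 1 BL s-1. With any 1 fish left out these values ran from 0.13 to 0.53, from −1.22 to −0.76 and from −1.55 to −1.06. At this depth the ratio of summed counts at 2 BL s-1 to the controls, 38 to 70 counts, was 0.525 with a 95% exact interval from counting alone of 0.344 to 0.790.

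On normalized counts, both scleraxis models were thus lower in all 3 fish at 2 BL s-1 than in all 3 controls. Of the 3947 gene models tested, 5.4% had the same arrangement. Against 1 BL s-1 this held for scleraxis alone, where the share over all gene models tested was 5.8%. At 1 BL s-1 vs. controls it held for neither, with 4.92% of all gene models tested. As shares of each fish's total count, scleraxis-like did hold this order at 1 BL s-1 vs. controls. By that measure scleraxis did not hold it at 2 BL s-1, where fish 2 lay just above control fish 3. The share over all gene models was not computed for that measure. Nothing is read from these orders or from how often they occur, since the models were chosen with the same contrasts known.

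**Figure D2:**
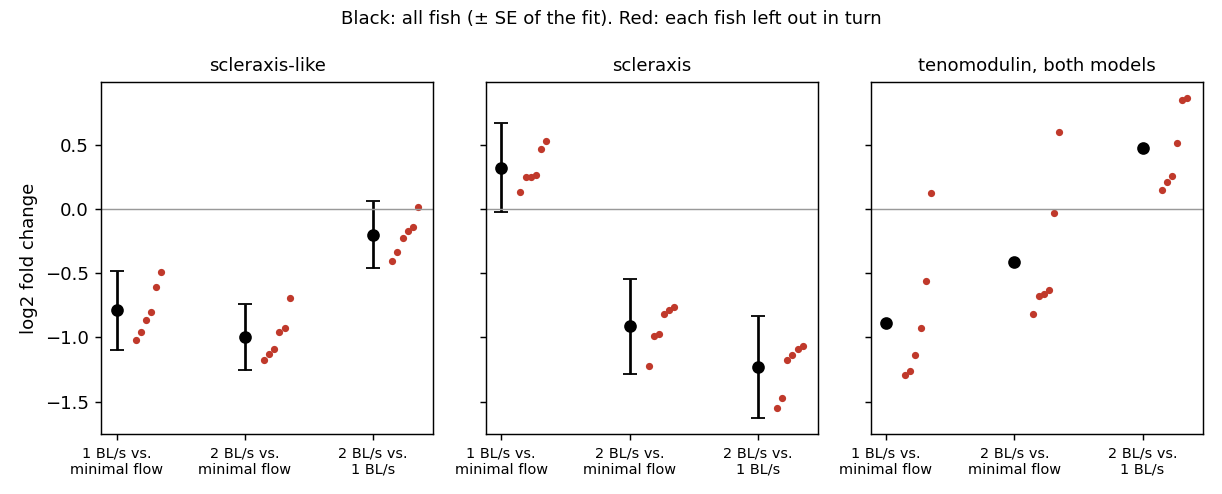
Log2 fold changes (y axis) of scleraxis-like, scleraxis and the summed tenomodulin models in the 3 comparisons (x axis). Black points use all 6 fish, with bars of ± SE of the fit for the scleraxis models, and red points leave out 1 fish each. For the scleraxis models the red points stay below 0 at 2 BL s-1 vs. minimal flow, whereas for tenomodulin they run from −0.81 to 0.60.

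The balance between the scleraxis models differed among fish. Scleraxis made up 4.31%, 2.11% and 3.95% of the counts of both models in the controls. It made up 4.71%, 11.04% and 5.76% in the fish at 1 BL s-1, and 2.49%, 4.91% and 2.92% in those at 2 BL s-1. The highest share, in fish 2 at 1 BL s-1, has a 95% exact interval of 7.81% to 15.02%. All 3 fish at 1 BL s-1 had a higher share than all 3 controls, while the shares at 2 BL s-1 overlapped with both other groups. The nearest shares, 4.71% at 1 BL s-1 and 4.31% in the controls, have overlapping intervals (3.01% to 6.99% and 2.86% to 6.21%). How often other pairs of gene models show this order was not computed, and nothing is read from it. The files give no transcript lengths, so these shares are of counts and not of molecules. Whether the scleraxis models are separate gene copies is not stated, and reads from near-identical copies could have been split between them.

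Tenomodulin was detected in every fish, at few counts. The counts of model Sa_32975.1.1 were 4, 24 and 8 for the controls, 3, 7 and 5 for the fish at 1 BL s-1, and 3, 11 and 14 for those at 2 BL s-1. Those of model Sa_7299.1.1 were 3, 12 and 6 for the controls, 3, 4 and 7 for the fish at 1 BL s-1, and 3, 8 and 7 for those at 2 BL s-1. Control fish 2 was the highest of the 9 for both models, and the lowest fish of each group was the same one for both models.

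On the normalized scale, the mean of Sa_32975.1.1 was 12.5 ± 12.1 in the controls, 5.40 ± 2.43 at 1 BL s-1 and 8.98 ± 5.44 at 2 BL s-1 (SD, n = 3 each). That of Sa_7299.1.1 was 7.19 ± 5.33 in the controls, 5.24 ± 3.37 at 1 BL s-1 and 5.79 ± 2.66 at 2 BL s-1. All groups overlapped for both models. The filter on low counts kept only Sa_32975.1.1, and only at 2 BL s-1 vs. controls, with a log2 fold change of −0.44 (SE 0.74). Since both carry 1 description and the RefSeq gene table (assembly fSpaAur1.1) lists 1 gene with the symbol tnmd, their counts were also summed, a choice made after seeing the data. The same RefSeq listing has 0 genes with the symbols scx, scxa or scxb, though both scleraxis models had counts. Its symbols therefore do not settle whether the tenomodulin models are 1 gene.

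Summed tenomodulin averaged 19.7 ± 17.4 normalized counts in the controls, 10.6 ± 5.16 at 1 BL s-1 and 14.8 ± 7.90 at 2 BL s-1 (SD, n = 3 each). The log2 ratio of means was −0.89 for 1 BL s-1 vs. controls and −0.41 for 2 BL s-1 vs. controls. These values rest on control fish 2, without which they were 0.12 and 0.60. The ratio of 29 to 57 summed counts at 1 BL s-1 was 0.529 (0.326 to 0.841), and that of 46 to 57 counts at 2 BL s-1 was 0.780 (0.517 to 1.17). These 95% exact intervals cover counting error only, and the spread among the controls is larger. A difference in tenomodulin between the groups was therefore not detectable with these fish.

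Across the 9 fish the tenomodulin models varied together. On log2 normalized counts, Pearson's r was 0.89 and Spearman's rho 0.80, given as a description without a test. Without the fish farthest from the median, control fish 2 and fish 1 at 1 BL s-1, r was 0.76. Taken as deviations from the group means, r was 0.90. Both models share the libraries and their depth.

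**Figure D3:**
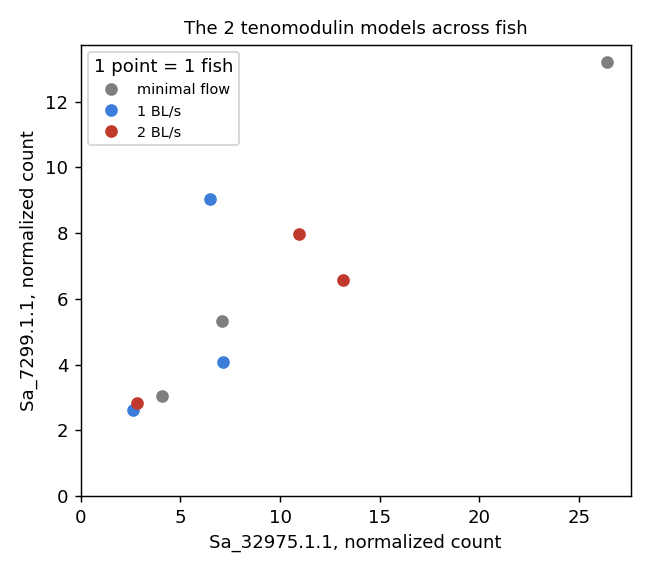
Normalized counts of the tenomodulin model Sa_7299.1.1 (y axis) against Sa_32975.1.1 (x axis), 1 point for each of the 9 fish, coloured by group. The points rise together (r = 0.89 on the log2 scale), with control fish 2 at the upper right at 26.4 and 13.2 and fish of every group at the lower left.

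The correlations that involve the scleraxis models were lower, and are likewise descriptions. Between scleraxis-like and scleraxis, r was 0.24 and rho 0.23 over the 9 fish, and r was −0.21 on the deviations from group means. Scleraxis-like and summed tenomodulin had r = 0.34 and rho = 0.12, and r turned to −0.33 without control fish 2, which was the highest fish for both. Scleraxis and summed tenomodulin had r = 0.00178 and rho = −0.13. Without the 2 fish farthest from the median, r was 0.20, −0.19 and −0.19 for these pairs in the order given.

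The gene models with the most similar pattern were ranked by Pearson's r on log2 normalized counts over the 9 fish, among 4238 models. For scleraxis-like these were led by inorganic pyrophosphatase-like (r = 0.94), the mitochondrial coenzyme A transporter SLC25A42-like (0.87) and S-adenosylmethionine synthase-like (0.85). Without control fish 2 their r was 0.86, 0.68 and 0.60. For scleraxis they were led by the serine/threonine kinase SBK1-like (0.93), Williams-Beuren syndrome chromosomal region 27 (0.89) and the cytosolic non-specific dipeptidase (0.88). Without control fish 2 their r was 0.94, 0.89 and 0.88. Alpha-sarcoglycan-like, a part of the complex that links muscle fibres to their matrix, was at rank 7 (0.83). The models ranked between are not named. For Sa_32975.1.1 they were led by aminopeptidase N-like (0.98), a membrane peptidase, CD82 antigen (0.92) and ADAMTS15-like (0.91), a protease of the extracellular matrix. Without control fish 2 their r was 0.97, 0.83 and 0.91. No gene model ranked among the first 8 for more than 1 of these 3. The highest of 4238 correlations over 9 fish are high by selection and are a description.

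Other genes of the tendon programme were taken from lists of descriptions. The lists were matched by name, so they can hold genes without a part in tendon. Chondromodulin, the closest relative of tenomodulin, had 2 models in the tables and no counts. Of 15 models of tendon transcription factors other than scleraxis, 8 had a count and 4 were tested, with 0 past an unadjusted p of 0.05 in either comparison with the controls (edgeR's quasi-likelihood test). Early growth response 1, a zinc finger factor that promotes tendon collagen in mouse and responds to load, is given here after its values were seen. Its normalized counts were 24.4, 26.4 and 6.20 for the controls, 36.6, 27.4 and 12.9 for the fish at 1 BL s-1, and 59.5, 20.9 and 33.8 for those at 2 BL s-1. The groups overlapped, with log2 fold changes of 0.47 (SE 0.56) at 1 BL s-1 and 1.03 (SE 0.54) at 2 BL s-1. Another model, early growth response 1-like, had 0.52 (SE 0.51) and 0.78 (SE 0.62), and its groups overlapped too. Homeobox Mohawk-like, a tendon regulator also chosen after its values were seen, was counted 1, 3 and 4 times in controls, 1, 4 and 4 times in fish at 1 BL s-1 and 0, 1 and 3 times in those at 2 BL s-1, too few to compare.

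Over the 6 tested lists together, 2 of 82 gene models were higher and 3 lower at 1 BL s-1 vs. controls at an unadjusted p of 0.05, beside 1.97% and 2.05% of all gene models tested. At 2 BL s-1 vs. controls, 1 of 88 was higher and 2 were lower, beside 1.75% and 2.71%. For 2 vs. 1 BL s-1, 4 of 87 were higher and 2 lower, beside 1.97% and 2.27%. These are few models, and the lists themselves were not tested. The median log2 fold change of the lists was −0.06, 0.00148 and 0.06 in the 3 comparisons, and that of all gene models tested −0.01, −0.00043 and 0.03. After Benjamini-Hochberg adjustment edgeR called 0 gene models in each comparison, with smallest adjusted p-values of 0.966, 0.996 and 0.803, while 157, 176 and 168 passed unadjusted. DESeq2 called 0, 1 and 2 adjusted and 114, 121 and 132 unadjusted.

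**Figure D4:**
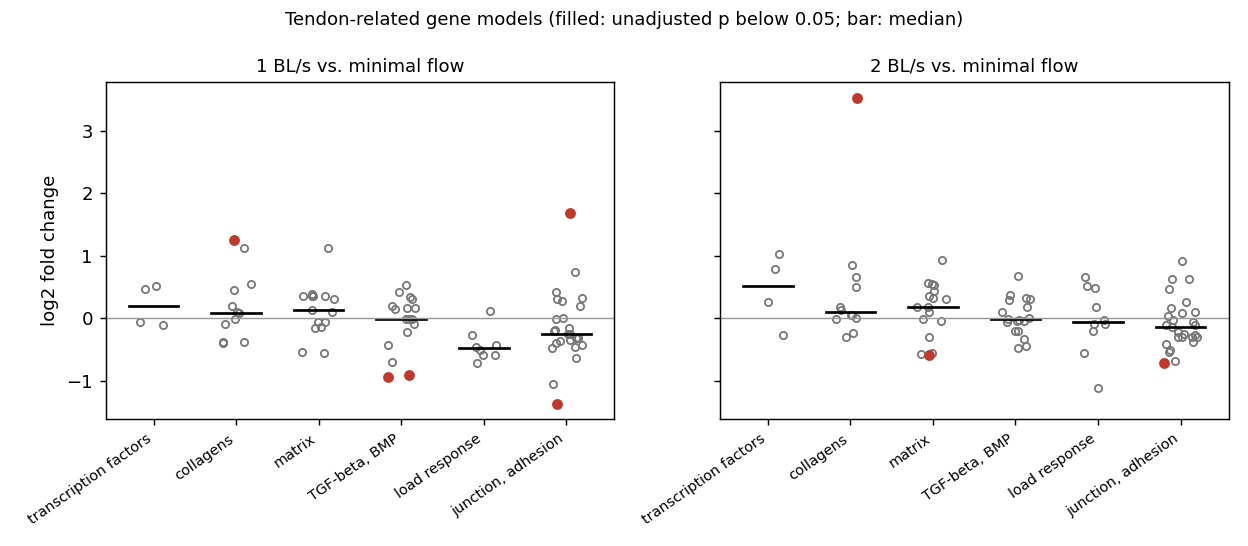
Log2 fold changes (y axis) of the tendon-related gene models tested, by list (x axis), for 1 BL s-1 vs. minimal flow (left) and 2 BL s-1 vs. minimal flow (right). Each point is a gene model, filled points have an unadjusted p below 0.05 (5 of 82 at 1 BL s-1 and 3 of 88 at 2 BL s-1) and bars mark list medians, which lie between −0.48 and 0.52.

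Among the tendon collagens, 1 of 12 models was higher in each comparison with the controls and 0 were lower. A model of collagen alpha-6(VI) (Sa_14754.1.1), of the collagen that surrounds cells and fibrils in muscle and tendon, averaged 39.6 ± 4.94 normalized counts at 1 BL s-1 and 16.5 ± 4.41 in the controls (SD, n = 3 each). The counts of this model were 45, 44 and 27 against 18, 18 and 13. Its log2 fold change was 1.26 (SE 0.34, adjusted p = 0.966 by edgeR). The value for 2 BL s-1 vs. controls was 0.13 (SE 0.44). The other collagen alpha-6(VI) models tested had −0.39, 0.19 and 0.56 at 1 BL s-1 vs. controls, and −0.30, −0.24 and 0.17 at 2 BL s-1. None of these passed the unadjusted threshold. Collagen alpha-2(V), which sets the diameter of collagen I fibrils, had 13, 19 and 500 counts at 2 BL s-1 and 22, 11 and 10 in the controls. Its log2 fold change of 3.54 (SE 1.23, adjusted p = 0.996 by edgeR) rests on fish 3, without which it was 0.11. Collagen alpha-1(I), the main fibre of tendon and the most abundant model of the lists, had log2 fold changes of 0.45 (SE 0.28) at 1 BL s-1 and 0.67 (SE 0.44) at 2 BL s-1. Its counts at 2 BL s-1 were 6706, 4492 and 19513, so fish 3 was also far above the others here.

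The list for other matrix proteins of tendon also took in models by name alone, such as fibronectin type III and SPRY domain-containing 2. It had 0 of 15 models past the unadjusted threshold at 1 BL s-1, and 0 higher and 1 lower of 17 at 2 BL s-1. That model, cartilage oligomeric matrix protein, which binds collagen fibrils in tendon and cartilage, averaged 82.2 ± 15.8 normalized counts at 2 BL s-1 and 124 ± 29.6 in the controls (SD, n = 3 each). Its log2 fold change was −0.59 (SE 0.26, adjusted p = 0.996 by edgeR). The call was lost under 8 of 12 alternatives, where the values ran from −0.74 to −0.39 over all 12. Thrombospondin-2-like, a matrix protein that shapes collagen fibrils and the most abundant of the list, had log2 fold changes of 0.30 (SE 0.24) and 0.18 (SE 0.24) at 1 and 2 BL s-1.

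TGF-beta signalling induces scleraxis in vertebrate embryos. Of the list for the TGF-beta and BMP pathways, 0 of 17 models were higher and 2 lower at 1 BL s-1, and 0 of 18 passed at 2 BL s-1. Myostatin, a member of the TGF-beta family that restrains muscle growth, had 210, 131 and 195 counts at 1 BL s-1 and 333, 337 and 426 in the controls. It averaged 189 ± 59.6 normalized counts at 1 BL s-1 and 362 ± 20.8 in the controls, with a log2 fold change of −0.95 (SE 0.26, adjusted p = 0.966 by edgeR). All 3 fish lay below all 3 controls, as for 4.92% of the 3902 gene models tested. For 2 BL s-1 vs. controls the log2 fold change of myostatin was 0.10 (SE 0.38). The 2 BL s-1 fish had 701, 303 and 206 counts and lay on both sides of the controls. The other model, TGF-beta-activated kinase 1 and MAP3K7-binding 2, an adaptor of the TAK1 kinase, had a log2 fold change of −0.91 (SE 0.36, adjusted p = 0.966 by edgeR), −0.60 without fish 3 at 1 BL s-1, and lost its call under 6 of 12 alternatives.

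Genes that answer to mechanical load (YAP, TEAD, CYR61 and the myocardin-related factors) had 0 of 8 models past the threshold at 1 BL s-1 and 0 of 10 at 2 BL s-1. Their median log2 fold change was −0.48 at 1 BL s-1 and −0.06 at 2 BL s-1. The most abundant, MKL/myocardin 1, a coactivator that follows the state of actin, had −0.46 (SE 0.21) at 1 BL s-1 and −0.21 (SE 0.19) at 2 BL s-1.

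The list for the muscle to tendon junction and cell adhesion was matched by family name, and holds integrins, laminins, sarcoglycans and tensins of any tissue. Of its models, 1 of 26 was higher and 1 lower at 1 BL s-1, and 0 were higher and 1 lower of 27 at 2 BL s-1. Paxillin-like, an adaptor of integrin adhesions, was counted 35, 40 and 39 times in controls, 26, 18 and 1 times in fish at 1 BL s-1 and 20, 29 and 23 times in those at 2 BL s-1. Its log2 fold change was −1.37 (SE 0.60, adjusted p = 0.966 by edgeR) at 1 BL s-1, where the call was lost under 5 of 12 alternatives and fish 3 had a single count (−0.89 without fish 3). For 2 BL s-1 it was −0.71 (SE 0.30, adjusted p = 0.996 by edgeR), lost under 8 of 12. Laminin beta-1-like, of the basement membrane, had 27, 17 and 25 counts at 1 BL s-1 and 4, 3 and 16 in the controls. Its log2 fold change was 1.69 (SE 0.56, adjusted p = 0.966 by edgeR), and the call was lost without control fish 1 (1.42). Dystroglycan, the most abundant of the list, had −0.31 (SE 0.22) and −0.11 (SE 0.18) at 1 and 2 BL s-1.

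Collagen alpha-1(XXII), which lies at the muscle to tendon junction, was singled out after its values were seen. It had 0, 2 and 0 counts at 1 BL s-1 and 14, 14 and 8 in the controls, with a ratio of summed counts of 0.0578 and a 95% exact counting interval of 0.00674 to 0.224. The filter left it out of that test. The fish at 2 BL s-1 had 5, 14 and 50 counts, with a log2 fold change vs. controls of 0.86 (SE 0.71). Its groups did not overlap at 1 BL s-1 vs. controls and did at 2 BL s-1. Of the 3902 gene models tested at 1 BL s-1 vs. controls, 4.92% had every fish below every control. Collagen alpha-1(XXII) was not among those tested. The interval covers counting error only and leaves out the spread among fish. Since the model was picked with these values known, no loss at 1 BL s-1 is read from them.

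Markers of other cells were read beside the scleraxis and tenomodulin levels. Fibroblast gene models, 8 of 30 with a count, summed to 5315–8227 normalized counts in controls, 6668–12967 at 1 BL s-1 and 4945–18911 at 2 BL s-1, of which collagen alpha-1(I) gave 94.7%. Dermatopontin, a matrix protein of fibroblasts singled out after its values were seen, had 227, 612 and 299 normalized counts in controls, 356, 479 and 837 at 1 BL s-1 and 202, 463 and 562 at 2 BL s-1. Control fish 2 was thus the highest control for dermatopontin, as for scleraxis-like and tenomodulin. Within each group, summed tenomodulin ordered the fish as dermatopontin did. Scleraxis-like did not, and at 2 BL s-1 it ran the opposite way (407, 328 and 313 normalized counts in fish 1, 2 and 3). At 2 BL s-1 both fibroblast measures overlapped with the controls, and their part in the scleraxis and tenomodulin levels was not tested.

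Cartilage gene models, 16 of 39 with a count and Sox-9 at 0, summed to 404–744 in controls, 540–779 at 1 BL s-1 and 581–990 at 2 BL s-1. Bone gene models, 3 of 7 with a count and osteocalcin at 0, summed to 57.2–85.0 in controls, 9.15–202 at 1 BL s-1 and 113–6325 at 2 BL s-1. The 6325 was fish 3 at 2 BL s-1, the fish with the high collagens I and V. It was nearly all collagen alpha-1(X), a model of this bone list named after its values were seen. Without that fish the log2 fold change vs. controls was −0.93 for scleraxis-like and −0.76 for scleraxis. Skin, red blood cell and adipocyte gene models summed to 217–242, 122–226 and 633–844 in controls, to 199–268, 254–938 and 373–995 at 1 BL s-1, and to 222–350, 117–358 and 577–665 at 2 BL s-1. The skin and adipocyte sums were mostly a keratinocyte-associated transmembrane protein (59.8%) and adiponectin receptor 2 (82.2%), which many tissues express. The part of these cells in the scleraxis and tenomodulin levels was not tested.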

How the data were processed

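The authors sequenced stranded, paired-end mRNA libraries of white muscle, and aligned and counted them per gene model with TopHat2 2.0.13, SAMtools 1.2 and HTSeq 0.6.1p1, per the submitters' processing notes, and compared groups with DESeq. The deposited values are the authors' raw counts, not normalized. Reads were aligned to a seabream assembly at NCBI that the paper links without a build name, and secondary alignments were removed. By the paper's mapping rates, most reads could not be mapped, which limits the counts of weakly detected models such as tenomodulin. The strand setting of the counting was not given in the sources used here. Antisense partners and near-identical copies are therefore uncertain. The tables' normalized group means, fold changes and p-values from DESeq were not used, nor were 2 columns without a sample label. Counts of a fish repeated in several tables differed in 0 values.

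Each pair of groups (6 fish) was fitted with the quasi-likelihood test of edgeR 4.0.16 in R 4.3.3, with TMM normalization and filterByExpr, which kept 3902, 3947 and 3963 gene models for 1 BL s-1 vs. controls, 2 BL s-1 vs. controls and 2 vs. 1 BL s-1. To obtain normalized counts, each fish's counts were divided by a size factor, the product of its library size and TMM factor over all 9 fish, scaled to a geometric mean of 1. Calls use an unadjusted p of 0.05, as in the study's methods, and Benjamini-Hochberg adjustment over all gene models tested. The SE of a log2 fold change is its absolute value divided by the square root of edgeR's F statistic. That statistic draws on variance estimates shared across gene models, so the SE is not the spread of that model alone. Correlations used log2 of normalized counts (scipy 1.17.1) and were not tested. Alternatives were RLE size factors (another scaling), library-size scaling, no low-count filter, DESeq2 1.42.0, all 9 fish in 1 fit, the replicate number as a block and leaving out each fish. The edgeR step was checked on simulated counts, with larger changes than those of the scleraxis models, the same dispersion for all models and no outlying fish. The check therefore does not cover changes of the size seen here or values that rest on a single fish. The scleraxis and tenomodulin models, the lists of descriptions and the alternatives were set with earlier results of these data known. Named genes were all scleraxis and tenomodulin models, every list model past an unadjusted p of 0.05 in a comparison with the controls, and the most abundant model of each list. The rule also covers the 8 models most correlated with each scleraxis or tenomodulin model that the low-count filter kept, of which some are named. A model that this rule names is not reported here. Other models, the leading markers of other cells among them, were named after their values were seen. The replicates are separate fish, and no sequences or coordinates were used.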

Additional observations from a re-analysis of the deposited data

How the results depend on the processing

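The scleraxis values against the controls kept their direction under all alternatives run. With library-size scaling, which moved the median of all gene models by 0.02, 0.23 and 0.20 (log2) in 1 BL s-1 vs. controls, 2 BL s-1 vs. controls and 2 vs. 1 BL s-1, scleraxis-like was −0.81, −0.80 and 0.02, and scleraxis 0.34, −0.68 and −1.01, so that scleraxis-like changed sign in 2 vs. 1 BL s-1 only. There it ran from −0.40 to 0.01 with each fish left out. Summed tenomodulin ran from −1.29 to 0.12, from −0.81 to 0.60 and from 0.15 to 0.86, and control fish 2 gave both sign changes.

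Counts of tendon list models past the unadjusted threshold moved with the setting. At 1 BL s-1 vs. controls, the 2 higher became 4 without the low-count filter and ranged from 2 to 6 with each fish left out (6 without control fish 2). The 3 lower became 1 with library-size scaling, 9 without the filter and 6 with all 9 fish in 1 fit, and ranged from 1 to 4 (1 without control fish 1). At 2 BL s-1 vs. controls, the 1 higher became 4 with library-size scaling, 15 without the filter, 0 with DESeq2 and 0 with the replicate block, and ranged from 0 (without fish 3 at 2 BL s-1) to 5 (without control fish 2). The 2 lower became 0, 4 and 1 with library-size scaling, no filter and DESeq2, 0 with all 9 fish and 1 with the replicate block, and ranged from 0 (without control fish 2) to 3. For 2 vs. 1 BL s-1, the 4 higher became 7, 17 and 2 under the same 3 settings and 1 with the replicate block, ranging from 1 (without fish 3 at 2 BL s-1) to 5. The 2 lower became 0 with library-size scaling and 4 without the filter, ranging from 1 (without fish 2 at 1 BL s-1) to 4 (without fish 3 of either group). Over the named list models, 250 alternative values stayed on their side of the threshold, 32 lost a call and 6 gained one. Among called models only, 12 of 60 alternatives lost the call at 1 BL s-1 vs. controls and 20 of 36 at 2 BL s-1 vs. controls. Without the low-count filter, edgeR's adjusted p passed 0.05 for 47, 92 and 72 gene models in the 3 comparisons, against 0 with it. The cause of these moves was not tested.

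The fish numbers did not pair the samples, with correlations of same-numbered deviations of 0.12, 0.18 and 0.02, then 0.04, 0.06 and 0.02, and −0.03, 0.13 and 0.14 in the 3 comparisons. With the number as a replicate block, scleraxis-like was −0.77, −0.95 and −0.17 and scleraxis 0.30, −0.94 and −1.23. With 3 fish and 1 tank a group, and at most 24 counts a fish for a tenomodulin model, depth and spread limit what could be seen.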
